A study of Mus musculus with 4 samples.

Results

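The genes of oxidative phosphorylation, the nuclear-encoded subunits of the 4 respiratory chain complexes and of ATP synthase, were described in induced neural stem cells, neural stem cells and fibroblasts of the mouse. Members were chosen by symbol: every gene beginning Nduf, Uqcr or Atp5, the genes Sdha, Sdhb, Sdhc and Sdhd, and those named Cox4 to Cox8 followed by a letter or i. The rule took 90 of the 18193 genes that a probe set named alone, and 179 of 45101 probe sets. They comprised 36 genes of complex I, 4 of complex II, 8 of complex III, 17 of complex IV, 17 of complex V (ATP synthase) and 8 Ndufaf genes, which are assembly factors of complex I and not subunits. Genes that meet the rule but had no probe set naming them alone were not analysed here.

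Total RNA of 4 cell samples had been hybridised to Affymetrix mouse arrays with a biotin label. The iNSC_14F and iNSC_13F samples are labelled as neural stem cells induced with 14 and with 13 factors, which the labels do not list. The NSC sample is labelled as primary-derived neural stem cells, and the MEF sample as mouse embryonic fibroblasts. NSC and both induced samples were grown in N2 medium, a serum-free mix, with EGF, bFGF and laminin, whereas the labels leave out how MEF were grown. The series' title concerns reprogramming of adult liver cells and B lymphocytes, and the labels do not say which cell gave rise to either induced sample, nor whether each was a single clone or a pool. With 1 array per group there was no replicate spread and no test, so every difference below is between these arrays and not between the conditions.

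All 4 samples carry embryonic stem cells as their source, which goes against the cell type label, and the 5 pluripotency markers looked up (Pou5f1, Nanog, Zfp42, Dppa5a and Tdgf1) were below the detection floor on every array. The floor was a signal of 104, the highest of the 4 arrays' 95th percentiles over 86 probe sets of odorant, vomeronasal and taste receptors. Of 8 fibroblast markers, 2 lay above it in iNSC_14F, 3 in iNSC_13F, 0 in NSC and 7 in MEF, and of 8 neural stem cell markers 7, 7, 8 and 3 did in the same order. Markers of hepatocytes and of B lymphocytes, 5 each with a probe set, were below the floor on all 4 arrays. All arrays carried the same 2% trimmed mean of 500, but the brightest probe sets were dimmer on the NSC array. Its 99th percentile was 13647, against 17084 to 18962 on the others. The hybridization controls, spiked in at fixed amounts in the standard Affymetrix protocol, were 1.82-fold brighter on iNSC_14F, 2.11-fold on iNSC_13F and 1.83-fold on MEF than on NSC. The poly-A controls, spiked into the RNA before labelling, were 2.43-fold brighter on iNSC_14F, 3.47-fold on iNSC_13F and 2.12-fold on MEF than on NSC. Directions below are those of the authors' scaling, and the values with the arrays set to equal controls of either kind stand beside the main results. Scaling to the poly-A controls was added after the data were seen.

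Oxidative phosphorylation passes electrons from NADH, at complex I, and from succinate, at complex II, through ubiquinone to complex III and by cytochrome c to complex IV, where oxygen is reduced. Complexes I, III and IV move protons across the inner mitochondrial membrane, and ATP synthase uses the return flow to make ATP. The genes measured here are nuclear, and further subunits of complexes I, III, IV and V are made inside the mitochondrion from its own genome. Stem cells and fibroblasts in culture also draw on glycolysis, and in neural cells the share of respiration is known to increase with differentiation.

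Promoters are shown because transcription factors that act on many respiratory genes, NRF1, the ETS-family factor GABP and YY1, are known to bind recurring short sequences there. RefSeq promoters (build GRCm38.p6, 250 bases before to 50 after the start site) were matched by gene ID for 74 of the 90 genes and searched on both strands for exact matches to 4 motifs. The NRF1 motif, the longest run of capitals in the sequences printed below, was found in 6 of the 74, or 8.11%, against 1.07% of 27025 genes. These 27025 are every gene with a RefSeq promoter, whether or not on the array or above the floor. They are what all genes means in this paragraph, and members were not set beside genes of like signal. The ETS motif CCGGAAG was found in 19, or 25.7%, against 9.93% of all genes. The YY1 motif AAGATGGCG was found in 7, or 9.46%, against 1.64%. At least 1 of these 3 motifs lay in 28 members, or 37.8%, against 12.1% of all genes. The core of the hypoxia response element, ACGTG, was found in 19 members, or 25.7%, against 21.8%. No matches of different motifs overlapped in the members, and 7 pairs of matches of the same motif did. Each pair was the run CACGTG, which holds ACGTG on both strands. They lay in Atp5g1, Atp5g3, Atp5l, Atp5pb, Ndufv1 and, counted for each of its promoters, Ndufa7. These are matches of letters and not sites shown to be bound.

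The 250 bases before the start site are printed for 5 members, 4 with the NRF1 motif and Uqcr11 with the ETS motif, chosen after their values were seen so as to set genes of the common order beside Ndufaf4, which departed from it. Each reads 5′ to 3′ in the direction of the gene, and capitals mark the motif matches. Atp5g2 lies at chr15:102671048-102671297 on the minus strand and encodes a precursor of the membrane ring of ATP synthase. Atp5k lies at chr5:108434400-108434649, minus strand, and encodes subunit e of ATP synthase. Cox6a1, a subunit of complex IV, is at chr5:115348959-115349208 on the minus strand. Uqcr11, a small subunit of complex III, is at chr10:80406822-80407071 on the minus strand. Ndufaf4, a complex I assembly factor, is at chr4:24897833-24898082 on the plus strand.
Atp5g2: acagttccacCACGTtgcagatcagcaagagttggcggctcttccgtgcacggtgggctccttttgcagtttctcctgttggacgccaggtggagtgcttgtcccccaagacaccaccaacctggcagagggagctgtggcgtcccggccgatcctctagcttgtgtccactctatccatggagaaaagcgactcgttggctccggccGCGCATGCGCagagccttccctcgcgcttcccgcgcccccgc
Atp5k: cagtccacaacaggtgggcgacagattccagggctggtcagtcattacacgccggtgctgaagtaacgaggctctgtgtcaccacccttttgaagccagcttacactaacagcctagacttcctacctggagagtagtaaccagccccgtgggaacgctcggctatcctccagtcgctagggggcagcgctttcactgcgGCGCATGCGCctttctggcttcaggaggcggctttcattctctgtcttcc
Cox6a1: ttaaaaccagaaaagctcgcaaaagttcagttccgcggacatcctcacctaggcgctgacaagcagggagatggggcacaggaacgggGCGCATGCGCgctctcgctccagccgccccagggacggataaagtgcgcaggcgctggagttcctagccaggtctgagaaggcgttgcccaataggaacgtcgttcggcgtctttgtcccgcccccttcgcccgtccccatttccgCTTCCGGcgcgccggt
Uqcr11: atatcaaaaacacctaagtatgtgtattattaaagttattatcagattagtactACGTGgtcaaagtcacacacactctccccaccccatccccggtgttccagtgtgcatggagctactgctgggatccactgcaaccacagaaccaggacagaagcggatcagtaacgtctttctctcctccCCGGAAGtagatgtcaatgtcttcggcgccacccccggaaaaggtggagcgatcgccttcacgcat
Ndufaf4: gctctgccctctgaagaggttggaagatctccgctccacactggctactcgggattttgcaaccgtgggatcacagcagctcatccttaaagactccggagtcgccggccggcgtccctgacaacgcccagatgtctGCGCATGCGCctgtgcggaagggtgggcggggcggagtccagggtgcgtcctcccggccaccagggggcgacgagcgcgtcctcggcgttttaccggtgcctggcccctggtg
Counted from the start site, the NRF1 match began at -42 in Atp5g2, -50 in Atp5k, -162 in Cox6a1 and -113 in Ndufaf4. In the other members with it, Ndufaf5 and Uqcrc1, it began 16 and 30 bases after the start.

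At the authors' scaling, most members stood higher in both induced samples than in NSC or MEF. Of the 84 members above the floor on all 4 arrays, 72 (85.7%) were higher on each induced array than on either of NSC and MEF, where 40.5% of the 8169 genes measured on all 4 arrays had that order. The median signal over these 84 members was 13277 in iNSC_14F, 12121 in iNSC_13F, 7772 in NSC and 7409 in MEF. iNSC_14F gave the highest signal for 53 members, iNSC_13F for 26, NSC for 5 and MEF for none, and MEF gave the lowest for 46 and NSC for 36. The spread was narrow: a member's highest array stood a median of 1.90-fold over its lowest, from 1.13-fold in Uqcrc2 to 4.40-fold in Cox6b2, whose signal in MEF was at the floor. A lower signal in bulk RNA can come from fewer cells of a type or from less RNA per cell, which cannot be told apart. The order rests on the authors' scaling: when the arrays were set to equal hybridization controls instead, 3 of the 84 members had it, against 5.74% of all genes, and with equal poly-A controls 0 of 82 had it, against 0.43% of all genes.

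**Figure D1:**
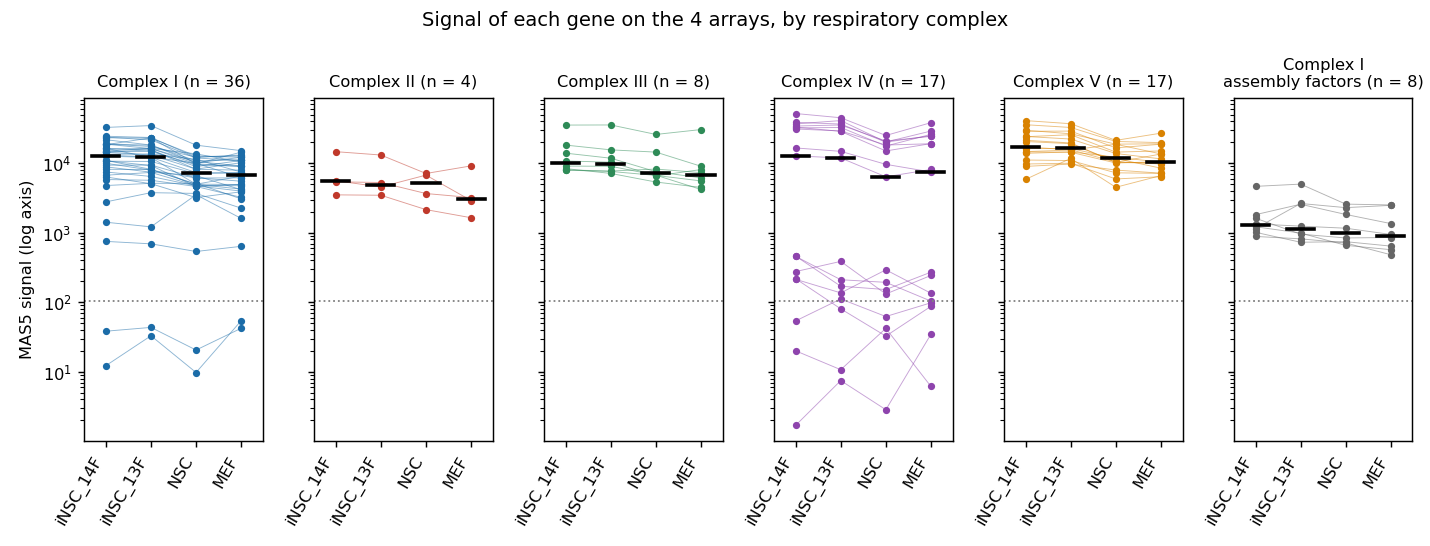
MAS5 signal of each of the 90 members on iNSC_14F, iNSC_13F, NSC and MEF (log axis), with a panel per complex, a point and thin line per gene, a black bar at the median and a dotted line at the floor. At the authors' scaling most lines run higher over the 2 induced arrays than over NSC and MEF, and levels of different genes are not comparable because each comes from its own probe set.

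The 6 members outside that count were dim. Cox4i2 and Cox7a1 were above the floor on some arrays, and Ndufa4l2, Ndufb4, Cox7b2 and Cox8b on none, so no difference is given for the last 4. Of the 12 measured members without the common order, Ndufs1 was the only member lower on both induced arrays than on NSC and MEF. Sdha, Uqcrc2, Cox7c and Atp5pb had both induced arrays between MEF and NSC. Ndufa5, Ndufs4, Cox6a2, Atp5md, Ndufaf2, Ndufaf4 and Ndufaf7 split the induced arrays.

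Set against MEF, the shift at the authors' scaling was wide and small. The median of the members was 0.70 on the log2 scale for iNSC_14F and 0.65 for iNSC_13F, with all genes at 0.11 and 0.09. In iNSC_14F 82 of 85 measured members were higher than in MEF (53.9% of all genes were), and in iNSC_13F 83 of 85 (53.8% of all genes). At 2-fold, 18 of 85 members rose in iNSC_14F, where 18.1% of all genes did, and 1 fell, where 18.6% did. In iNSC_13F 4 of 85 rose, against 15.7% of all genes, and 0 fell, against 20.5%. So the share past 2-fold upward was near the background in iNSC_14F and under it in iNSC_13F, and the share that fell was below the background in both. At 1.5-fold, a lower size added after the values were seen, 58 rose in iNSC_14F and 51 in iNSC_13F, against 31.5% and 28.8% of all genes. Both comparisons use the same MEF array. With equal hybridization controls the medians were 0.71 in iNSC_14F, with all genes at 0.11, and 0.45 in iNSC_13F, with all genes at -0.09. With equal poly-A controls the median was 0.50 in iNSC_14F, with all genes at -0.07, and it turned to -0.055 in iNSC_13F, with all genes at -0.51. The direction for iNSC_13F against MEF thus depends on the scaling. Under each of these scalings the members' median was above that of all genes, as a factor common to an array moves both together.

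NSC itself was level with MEF for most members. The median was 0.04, with all genes at -0.01, and 47 of 84 members were higher in NSC (49.5% of all genes were). At 2-fold 3 members rose, Ndufs1, Sdha and Cox7c, where 19.6% of all genes did, and 0 fell, where 17.2% did. This too depends on the scaling, since with equal hybridization controls the median was 0.91, with all genes at 0.78, and 35 of 85 members rose, against 42.3% of all genes. With equal poly-A controls it was 1.12, with all genes at 0.97, and 57 of 85 rose, against 48.9%.

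Against NSC the members' median was 0.72 in iNSC_14F and 0.62 in iNSC_13F, but all genes were shifted the same way, with medians of 0.33 and 0.30. In iNSC_14F 76 of 85 members were higher than in NSC (62.7% of all genes were), and in iNSC_13F 79 of 85 (62% of all genes). At 2-fold 14 of 85 members rose in iNSC_14F, against 16.9% of all genes, and 1 fell, against 19.1%. In iNSC_13F 5 of 85 rose, against 14.9%, and 2 fell, against 20.5%. At 1.5-fold 56 rose in iNSC_14F and 47 in iNSC_13F, against 38.2% and 35.9% of all genes. With equal hybridization controls the median turned to -0.14 in iNSC_14F, with all genes at -0.44, where 1 member rose and 6 fell, against 2.60% and 31.7% of all genes. It turned to -0.44 in iNSC_13F, with all genes at -0.65, where 0 members rose and 8 fell, against 1.31% and 38.0% of all genes. With equal poly-A controls the medians were -0.57 in iNSC_14F and -1.16 in iNSC_13F, with all genes at -0.81 and -1.31.

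**Figure D2:**
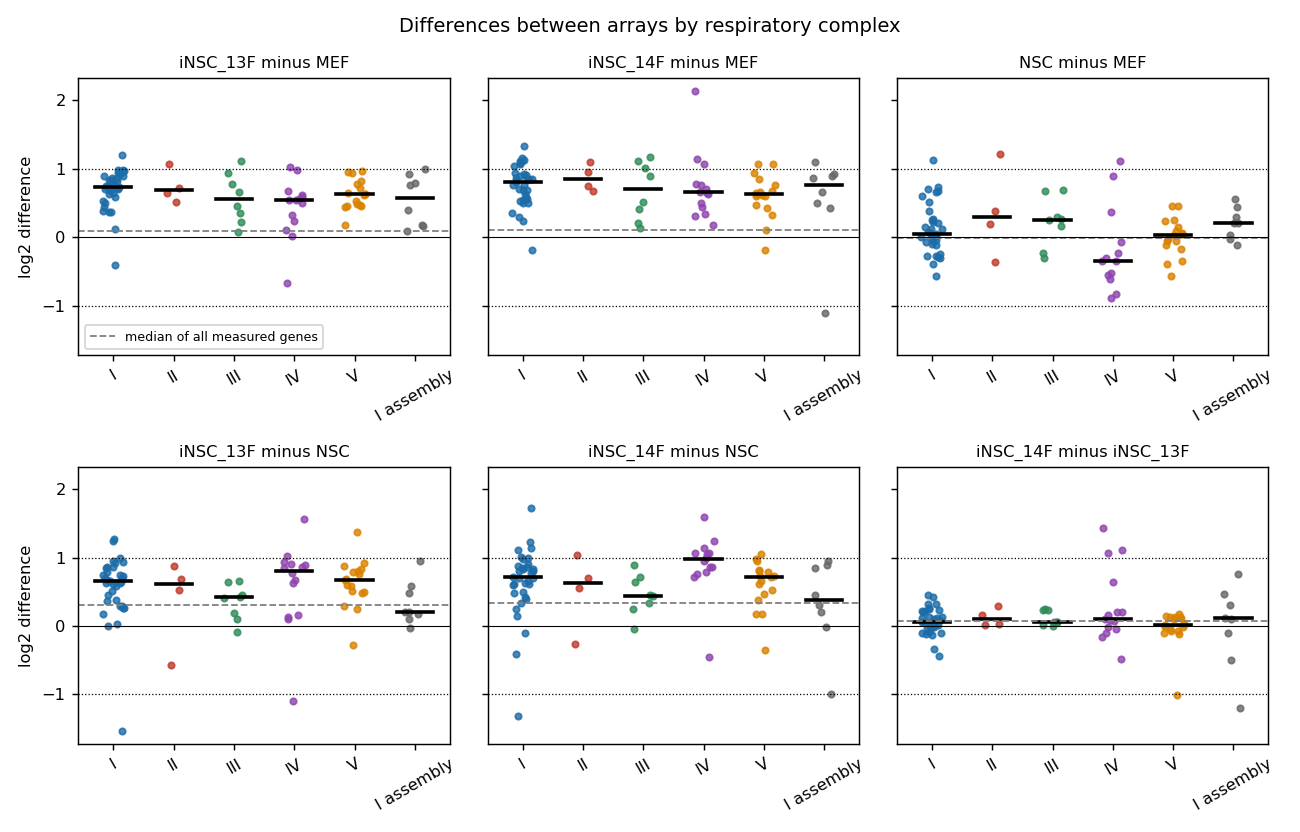
Log2 differences of the measured members by complex, in a panel for each of the 6 pairs of arrays. Each point is a gene, each black bar the median of its complex, the dashed line the median of all measured genes and the dotted lines mark 2-fold. At the authors' scaling the medians of the 5 complexes on the induced arrays against MEF lie between 0.55 and 0.85.

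Respiratory genes are among the brightest on these arrays, and bright genes as a class moved. In the brightest twentieth of genes, 54 of 576 genes in iNSC_14F against MEF were members, with a median of 0.68 against 0.32 for the other genes there. In iNSC_13F against MEF it held 52 members, with a median of 0.63 against 0.30 for the others. Against NSC the distance was smaller: in that twentieth their median was 0.80 in iNSC_14F, with the others at 0.63, and 0.71 in iNSC_13F, with the others at 0.67. Centring each gene on the median of all genes of like signal, members included, an alternative added after the data were seen, left member medians against MEF of 0.40 in iNSC_14F and 0.32 in iNSC_13F, and against NSC of 0.14 in iNSC_14F and -0.0015 in iNSC_13F. Of 85 members, 59 in iNSC_14F and 42 in iNSC_13F then lay above 0 against NSC.

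**Figure D3:**
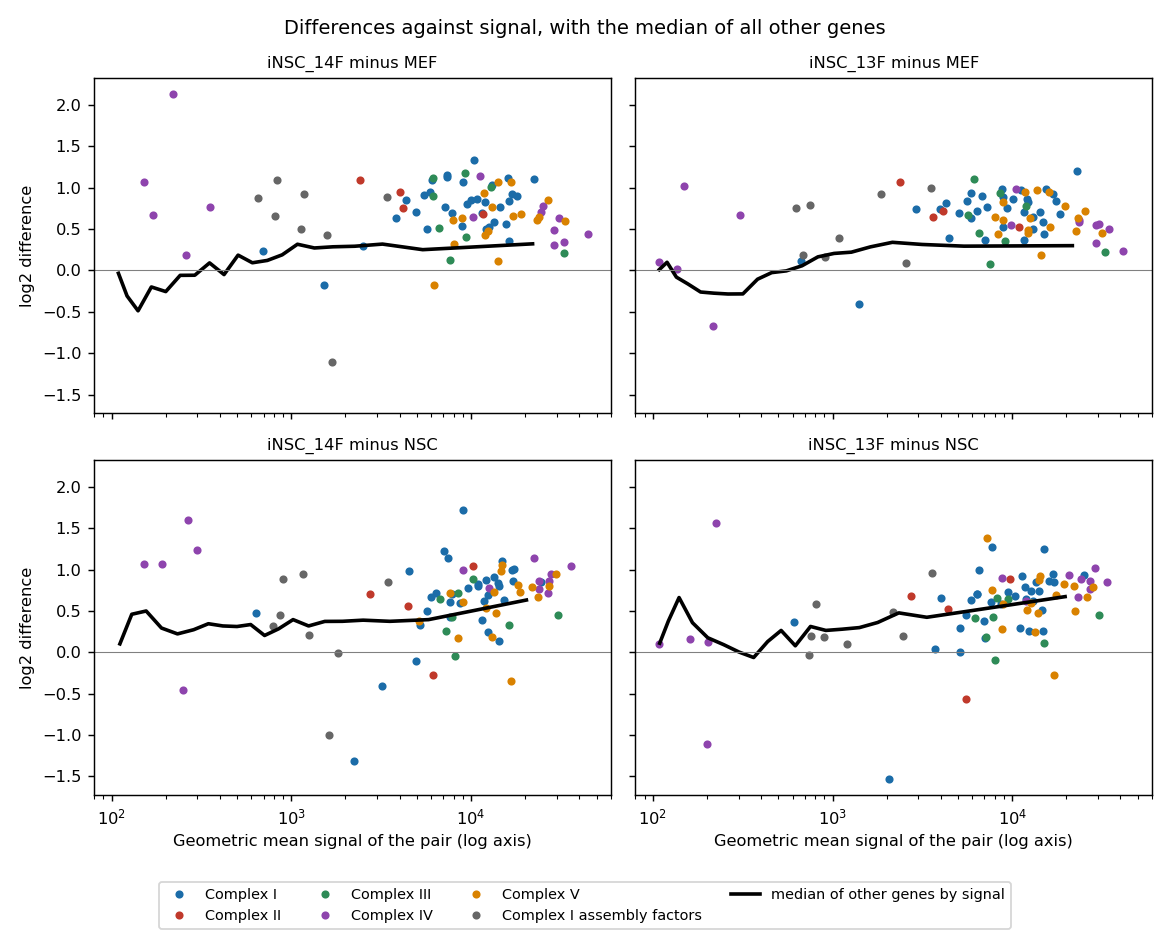
Log2 difference of each member against the geometric mean signal of the 2 arrays compared (log axis), coloured by complex, with the median of all other genes by signal as a black line. For both induced arrays against MEF most members lie above the line at the bright end, and for iNSC_13F against NSC they lie on either side of it.

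Complex I takes electrons from NADH in a peripheral arm built on flavin and iron-sulfur subunits, joined to a membrane arm of mostly small accessory subunits. Of its 34 members above the floor on all arrays, 31 had both induced arrays highest, against 40.5% of all genes measured on all 4 arrays. Its median against MEF was 0.81 in iNSC_14F and 0.74 in iNSC_13F. In each, 33 of 34 were higher than MEF, where 53.9% and 53.8% of all genes were. At 2-fold 8 of 34 (23.5%) rose in iNSC_14F, where 18.1% of all genes did. They were Ndufv3, Ndufs7, Ndufv1, Ndufb11, Ndufc2, Ndufb5, Ndufs3 and Ndufs8. In iNSC_13F Ndufc2 alone did (2.94%), against 15.7% of all genes. In iNSC_14F the other probe set of Ndufb5, at 0.93, and the 5 others of Ndufs8, at 0.65 to 0.97, fell short of 2-fold. The 2 others of Ndufv1 gave 0.94 and 1.20. Among its core subunits, Ndufv1, which binds NADH, had a signal of 10860 in iNSC_14F, 9258 in iNSC_13F, 4632 in NSC and 4962 in MEF. Ndufs7, which carries the last iron-sulfur cluster before ubiquinone, had 11004 in iNSC_14F, 8163 in iNSC_13F, 5004 in NSC and 4940 in MEF. NSC and MEF were nearly level for both, and the induced arrays were above them. Ndufs3 was 8873 in iNSC_14F, 7441 in iNSC_13F, 6618 in NSC and 4165 in MEF, and here NSC lay closer to the induced arrays than to MEF. Ndufs8, also an iron-sulfur subunit, had 18816, 16249, 10550 and 9158 in the same order of arrays. The median of the 6 core subunits against MEF was 1.07 in iNSC_14F, 0.83 in iNSC_13F and 0.40 in NSC.

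Among the accessory subunits, Ndufv3 of the flavoprotein part had the widest range of complex I, 3.29-fold. It gave 16433 in iNSC_14F, 12067 in iNSC_13F, 4992 in NSC and 6514 in MEF, so that both induced arrays were above both others. The difference from NSC was 1.72 in iNSC_14F and 1.27 in iNSC_13F. Ndufc2, a subunit of the membrane arm, had 32749 in iNSC_14F, 34810 in iNSC_13F, 18191 in NSC and 15173 in MEF, and rose on both induced arrays against MEF, by 1.11 and 1.20. Another 2 of its probe sets put NSC nearer the induced arrays: the first gave 21094, 21991, 15659 and 6909, and the second 20439, 20808, 14843 and 6864. On all 3 the induced arrays were highest and MEF lowest. Ndufb1, a small membrane arm subunit, was the steadiest of the complex with a 1.40-fold range, at 751 in iNSC_14F, 693 in iNSC_13F, 538 in NSC and 638 in MEF. Ndufb6 rose in iNSC_13F against NSC by 1.24, with 18449 in iNSC_14F, 23236 in iNSC_13F, 9806 in NSC and 14441 in MEF. Its other probe set gave 9174, 9167, 6308 and 5975, a difference of 0.54 that does not reach 2-fold, and there MEF was lowest. Ndufa13 and Ndufc1 rose in iNSC_14F against NSC, by 1.11 and 1.00.

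Ndufs1, the largest iron-sulfur subunit of complex I and part of its core, went the other way from its partners. Its single probe set gave 1417 in iNSC_14F, 1216 in iNSC_13F, 3525 in NSC and 1608 in MEF. The NSC array stood apart above the other 3, and both induced arrays were below MEF. Against NSC it fell by 1.31 in iNSC_14F and by 1.54 in iNSC_13F, and it rose by 1.13 in NSC against MEF. Ndufs4, an accessory subunit next to it, had 2779, 3772, 3680 and 2259 in iNSC_14F, iNSC_13F, NSC and MEF, so that NSC and iNSC_13F were level. Ndufa4, once counted in complex I and now placed in complex IV, had 15055 in iNSC_14F, 16330 in iNSC_13F, 13628 in NSC and 10449 in MEF. Its hypoxia-induced relative Ndufa4l2 was below the floor throughout, at 12.3, 33.0, 9.77 and 54.3. Complexes were assigned by symbol, so Ndufa4 and Ndufa4l2 are counted with complex I here and not with complex IV.

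**Figure D4:**
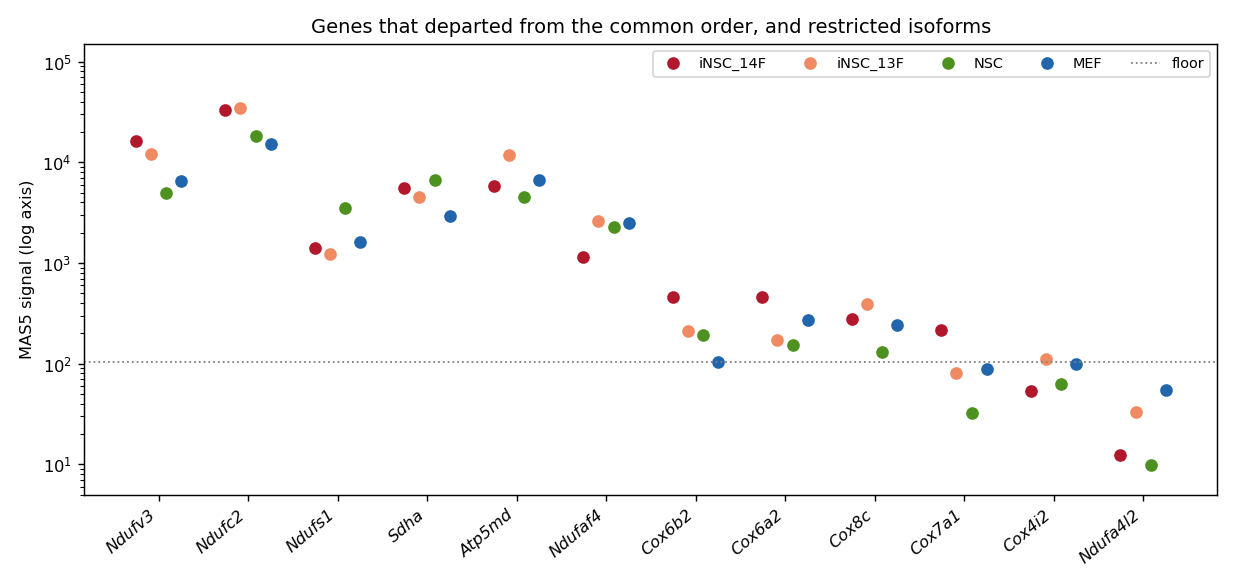
Signal on iNSC_14F, iNSC_13F, NSC and MEF (log axis) of members with a wide range or another order than most, and of restricted isoforms; the dotted line is the floor. Ndufs1 and Sdha are highest in NSC, Ndufaf4 is lowest in iNSC_14F and Atp5md is highest in iNSC_13F.

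Complex II is succinate dehydrogenase, an enzyme of the tricarboxylic acid cycle fixed in the inner membrane. All 4 subunits were higher on both induced arrays than in MEF, with medians of 0.85 in iNSC_14F and 0.68 in iNSC_13F. Of all genes, 53.9% were higher in iNSC_14F than in MEF and 53.8% in iNSC_13F, and 4 genes are few for such a count. Sdha, the flavoprotein that oxidises succinate, had 5600 in iNSC_14F, 4563 in iNSC_13F, 6748 in NSC and 2905 in MEF. NSC was highest and MEF lowest, and the gene rose in NSC against MEF by 1.22. A second detected probe set kept that order, with 2632, 2186, 3198 and 2000. Its partner Sdhb, the iron-sulfur subunit, had a different order, with 14672 in iNSC_14F, 13132 in iNSC_13F, 7122 in NSC and 9159 in MEF, and rose in iNSC_14F against NSC by 1.04. The membrane anchor Sdhc rose on both induced arrays against MEF, with 3509 in iNSC_14F, 3464 in iNSC_13F, 2151 in NSC and 1645 in MEF. A second probe set of Sdhc gave 1270, 1612, 950 and 1208, with a smaller gap to MEF. Sdhd, the other anchor, was the steadiest of the 4 with a 1.68-fold range.

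Complex III, which hands electrons from ubiquinol to cytochrome c, had medians against MEF of 0.71 in iNSC_14F and 0.56 in iNSC_13F. All 8 members were higher in each than in MEF, where 53.9% and 53.8% of all genes were. Uqcrfs1, the Rieske iron-sulfur protein, rose on both induced arrays against MEF, with 9096 in iNSC_14F, 9043 in iNSC_13F, 6734 in NSC and 4191 in MEF. MEF was clearly the lowest array for this gene. Uqcr11 rose in iNSC_14F, with 13959, 11810, 7561 and 6162, and so did Uqcrh, the hinge protein that docks cytochrome c, with 18242, 15576, 14455 and 9049. The core protein Uqcrc2 was the steadiest of all members, at 8023 in iNSC_14F, 7730 in iNSC_13F, 8246 in NSC and 7326 in MEF. Uqcrb had 35395 in iNSC_14F, 35540 in iNSC_13F, 25959 in NSC and 30521 in MEF. Its second probe set disagreed, with 4745, 6760, 7084 and 4903, where NSC was highest.

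Complex IV, cytochrome c oxidase, was the one complex whose members were mostly lower in NSC than in MEF, 10 of 13, against 5767 of 11415 genes. Among the 10, Cox6a2 and Cox8c were dim. Other detected probe sets of Cox5a, Cox5b, Cox6a1, Cox6b1 and Cox6c were also lower in NSC. Those of Cox7a2, at 0.32, and of Cox7a2l, at 0.0095 and 0.038, were not. The median of the complex in NSC against MEF was -0.35. With equal hybridization controls this sign does not hold, as the whole NSC array moves up. Relative to the median of all members, a difference that a single scaling factor per array leaves unaltered, Cox6a1 stood at -0.65 in NSC against MEF. That is 1 gene on 1 probe set. Before the median was taken off, this probe set gave -0.61 and the other detected probe set of Cox6a1 gave -0.28. Against NSC the complex had the highest medians, 0.97 in iNSC_14F and 0.81 in iNSC_13F, and 7 of its 14 measured members rose in iNSC_14F, against 16.9% of all genes. These were the dim Cox6a2, Cox6b2, Cox7a1 and Cox8c, and Cox6a1, Cox6c and Cox7a2l, the last at 1.00. Other probe sets of Cox6a1, at 0.78, and of Cox7a2l, at 0.85 and 0.91, fell short of 2-fold, and that of Cox6c did not. With equal hybridization controls only 1 member of any complex rose in this pair, against 2.60% of all genes. Cox6a1, an accessory subunit, had 51891 in iNSC_14F, 45114 in iNSC_13F, 25084 in NSC and 38313 in MEF. Cox5a had 36820, 41081, 20210 and 29038, and rose in iNSC_13F against NSC by 1.02. In both genes NSC was lowest and MEF lay between it and the induced arrays. The common isoform Cox4i1 was the steadiest, at 31082 in iNSC_14F, 29156 in iNSC_13F, 18270 in NSC and 19074 in MEF. Cox8a, by contrast, had MEF lowest, with 16594, 14833, 9637 and 7494, and rose in iNSC_14F against MEF by 1.15.

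Tissue-restricted isoforms of complex IV lay near the floor, and their differences are between dim signals. Cox6b2, known as a testis isoform, had 458 in iNSC_14F, 211 in iNSC_13F, 194 in NSC and 104 in MEF, which was a rise in both against MEF, by at least 2.14 in iNSC_14F and 1.02 in iNSC_13F since the MEF signal was at the floor. Its ubiquitous counterpart Cox6b1 had 38726, 36636, 20114 and 24880. Cox6a2, the heart and muscle isoform, had 461 in iNSC_14F, 170 in iNSC_13F, 152 in NSC and 271 in MEF, and rose in iNSC_14F against iNSC_13F by 1.44. The iNSC_14F array was thus highest for both restricted isoforms. Cox7a1, also of heart and muscle, was above the floor in iNSC_14F alone, with 218 there against 80.5 in iNSC_13F, 32.6 in NSC and 87.5 in MEF, so it was at least 2.10-fold higher in iNSC_14F than on each of the others taken at the floor. Its ubiquitous counterparts had 34295, 35527, 20867 and 24355 for Cox7a2 and 12766, 11909, 6382 and 8143 for Cox7a2l. Of 5 muscle markers only Ckm passed the floor, in iNSC_14F, iNSC_13F and MEF, and the muscle myosin Myh1 had 43.8, 1.42, 7.78 and 19.5. Cox8c, a testis isoform, had 277 in iNSC_14F, 387 in iNSC_13F, 132 in NSC and 243 in MEF. Cox4i2, an isoform known from lung and from hypoxia, passed the floor in iNSC_13F alone, at 112, with 54.0 in iNSC_14F, 62.4 in NSC and 98.3 in MEF. Cox7b2 and Cox8b were below it on all arrays. Cox7c, a ubiquitous subunit, was dim on its detected probe set, with 214, 136, 293 and 135, so its call in NSC rests on a weak signal.

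ATP synthase, complex V, couples a catalytic head to a rotating membrane ring. Of its 17 members 15 had both induced arrays highest, against 40.5% of all genes measured on all 4 arrays. Its medians against MEF were 0.64 in iNSC_14F and 0.63 in iNSC_13F, with 0.03 in NSC. The 3 genes Atp5g1, Atp5g2 and Atp5g3 encode the same mature ring protein from different precursors. Atp5g2 rose in iNSC_14F against MEF, with 20533 in iNSC_14F, 19115 in iNSC_13F, 10408 in NSC and 9768 in MEF. Atp5g3 had 41049, 37026, 21333 and 27063, and Atp5g1 had 9751, 10010, 5941 and 6400. All 3 were highest on the induced arrays, and they differed in whether NSC or MEF was lowest. Atp5a1, the alpha subunit of the catalytic head, had 24279 in iNSC_14F, 22291 in iNSC_13F, 13809 in NSC and 11557 in MEF, and rose in iNSC_14F against MEF by 1.07. A dimmer probe set of Atp5a1 gave 882, 1170, 267 and 1041, and did not share that difference. The delta subunit gene Atp5d rose in iNSC_14F against NSC by 1.05. Atp5pb, a stalk subunit, was highest in NSC, with 14702, 15464, 18763 and 13617, and its second probe set was too, with 4869, 5543, 10067 and 5283. Atp5mpl was the steadiest of the complex, with a 1.35-fold range. Atp5k, whose promoter is printed above, had 17150 in iNSC_14F, 15644 in iNSC_13F, 10378 in NSC and 10082 in MEF.

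The Ndufaf assembly factors, which help to build complex I and are not part of it, had a less uniform pattern. Both induced arrays were highest for 5 of 8, against 40.5% of all genes measured on all 4 arrays. Their medians against MEF were 0.77 in iNSC_14F and 0.58 in iNSC_13F, and against NSC 0.38 and 0.20. Ndufaf6 rose in iNSC_14F against MEF, with 1219 in iNSC_14F, 990 in iNSC_13F, 660 in NSC and 571 in MEF. Ndufaf8 had 4649 in iNSC_14F, 5009 in iNSC_13F, 2583 in NSC and 2511 in MEF. Both show the order of most subunits. Ndufaf1 was the steadiest, with a 1.42-fold range. Ndufaf4 was lower in iNSC_14F than on the other 3 arrays, with 1150 in iNSC_14F, 2637 in iNSC_13F, 2298 in NSC and 2478 in MEF. It fell by 1.11 in iNSC_14F against MEF and by 1.20 against iNSC_13F. Its second probe set was also lowest in iNSC_14F but separated NSC from the rest, with 80.5, 181, 1488 and 353.

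At the authors' scaling the induced arrays resembled each other closely for these genes. The median of iNSC_14F minus iNSC_13F was 0.07 over 86 members and 0.07 over all genes, and 95% of the 84 members above the floor on all arrays lay within 1.68-fold, where 95% of all genes detected on both arrays lay within 2.32-fold. At 2-fold 3 members rose, Cox6a2, Cox6b2 and Cox7a1, against 5.99% of all genes, and 2 fell, Atp5md and Ndufaf4, against 2.95%. This depends on the scaling: the members' median was 0.29 with equal hybridization controls and 0.59 with equal poly-A controls. Under these 0 members fell, against 1.85% and 0.855% of all genes. The 3 that rose were dim. Atp5md, a small subunit associated with ATP synthase dimers, had 5857 in iNSC_14F, 11740 in iNSC_13F, 4510 in NSC and 6642 in MEF, a difference of -1.003. It was the only subunit well above the floor that parted the induced arrays by that much, and it has 1 probe set.

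Probe sets of a gene mostly had the same direction for the induced arrays. For 41 members with several detected probe sets, all pointed the same way in 36 for iNSC_14F against MEF, 39 for iNSC_13F against MEF, 39 for iNSC_14F against NSC and 40 for iNSC_13F against NSC. Agreement was lower where the median was near 0, in 24 for NSC against MEF and in 23 for iNSC_14F against iNSC_13F. Calls of size were less steady: of 53 calls at 2-fold, 22 were of genes with other detected probe sets, and in 14 of these some other probe set fell short of 2-fold, with the opposite direction in 1, Atp5a1 in iNSC_14F against MEF. For Uqcr10, a small subunit of complex III, probe sets disagreed in direction in both comparisons with MEF.

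Genes around the respiratory chain were set beside it in lists of known pathway genes. Mitochondrial ribosomal proteins, which translate the subunits encoded in the mitochondrion, had medians close to those of the members. The median of 76 genes against MEF was 0.69 on each induced array and 0.16 in NSC. At 2-fold 17 (22.4%) rose in iNSC_14F and 15 (19.7%) in iNSC_13F, not far above the 18.1% and 15.7% of all genes. In either, 0 fell, against 18.6% and 20.5% of all genes. The same shares of all genes apply to the counts of the next lists. Among 17 enzymes of the tricarboxylic acid cycle and pyruvate dehydrogenase the median against MEF was 0.68 in iNSC_14F and 0.48 in iNSC_13F. In iNSC_14F 4 (23.5%) rose and 1 (5.88%) fell, and in iNSC_13F 2 (11.8%) rose and 2 (11.8%) fell. Cs, citrate synthase, had 25846 in iNSC_14F, 21831 in iNSC_13F, 12314 in NSC and 12179 in MEF, the order of most subunits. Sucla2, a subunit of succinyl-CoA ligase, had 1573, 1212, 6392 and 3002, and was lower on both induced arrays than on NSC and MEF, as Ndufs1 was. Electron carriers outside the rule, 9 measured, had medians of 0.44 in iNSC_14F and 0.29 in iNSC_13F against MEF. On each induced array 2 (22.2%) rose, Cyc1 and Dhodh, and 0 fell, while Gpd2 and Sqor were lower than MEF by less than 2-fold. Among them Cyc1, the cytochrome c1 of complex III, had 19900 in iNSC_14F, 17976 in iNSC_13F, 8579 in NSC and 8043 in MEF, and so rose on both induced arrays. The 34 other assembly factors measured had medians of 0.51 and 0.46. In iNSC_14F 6 (17.6%) rose and 3 (8.82%) fell, and in iNSC_13F 4 (11.8%) rose and 0 fell. The rising shares of these lists thus lay near those of all genes.

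Regulators of mitochondrial gene expression had medians against MEF of 0.26 in iNSC_14F and 0.24 in iNSC_13F, with single genes in both directions. Against MEF 3 of 17 rose in iNSC_14F, where 18.1% of all genes did, and 3 fell, where 18.6% did. In iNSC_13F 2 of 16 rose, against 15.7% of all genes, and 2 fell, against 20.5%. These shares were near or below those of all genes. Gabpa, the DNA-binding subunit of GABP, had 473 in iNSC_14F, 301 in iNSC_13F, 4266 in NSC and 1248 in MEF, and was far lower on both induced arrays than in NSC. Nrf1 had 533, 476, 330 and 455, and Yy1 had 6525, 5514, 5313 and 5039. Myc, which can drive mitochondrial genes, had 4049 in iNSC_14F, 8335 in iNSC_13F, 2572 in NSC and 3046 in MEF.

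HIF-regulated and glycolytic genes differed between the induced arrays, for which the median of the respiratory genes was near 0 at the authors' scaling. Of 22 measured, all were higher in iNSC_14F than in iNSC_13F, with a median of 1.26, and 15 rose at least 2-fold, against 5.99% of all genes. The 86 members had a median of 0.07 in the same comparison (58 of 86 were higher in iNSC_14F, as were 56.2% of all genes). Pdk1, the kinase that restrains pyruvate dehydrogenase, had 5802 in iNSC_14F, 572 in iNSC_13F, 335 in NSC and 2415 in MEF. Bnip3, a mitochondrial outer membrane protein of mitophagy, had 16977 in iNSC_14F, 775 in iNSC_13F, 810 in NSC and 6216 in MEF. For both genes MEF lay between iNSC_14F and the low pair of iNSC_13F and NSC. Higd1a, a hypoxia-inducible protein that binds complex IV, had 22955, 10129, 4865 and 12728. Against MEF the medians of the 22 were 0.84 in iNSC_14F, -0.60 in iNSC_13F and -1.42 in NSC.

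**Figure D5:**
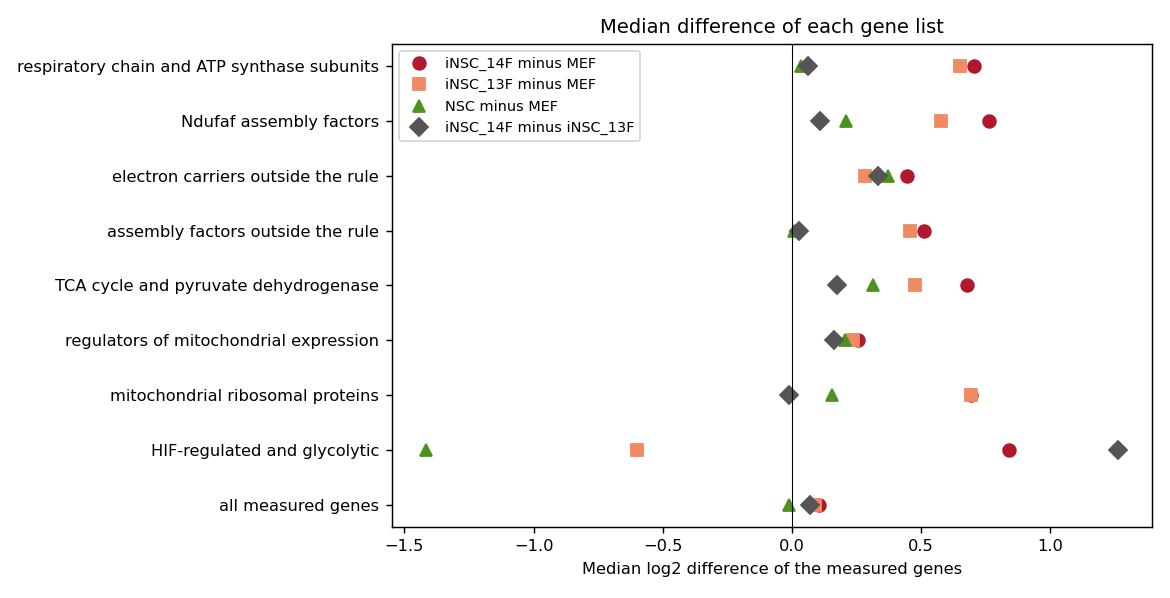
Median log2 difference of the subunits, the Ndufaf assembly factors, 6 related gene lists and all measured genes, for each induced array against MEF, NSC against MEF and iNSC_14F against iNSC_13F. Respiratory subunits and mitochondrial ribosomal proteins lie between 0.65 and 0.70 on both induced arrays against MEF, and the HIF-regulated and glycolytic list is at 1.26 for iNSC_14F against iNSC_13F.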

How the data were processed

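Total RNA of 4 mouse samples had been measured on 1 array each. The deposited values are intensities, 1 linear signal per probe set, made by the authors with MAS5 per the submitters' processing notes, which state no version. The arrays were left at the deposited scale. The cell type label gave each sample's group.

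The platform annotation gave probe sets their genes, with symbols updated by gene ID or accession to RefSeq GRCm38.p6. Of 45101 probe sets 34945 named 1 gene, 932 several and 9160 none, and 64 were controls. Each gene was represented by the probe set with the highest mean log2 signal. Signals were raised to the floor of 104, and a gene counted as measured in a pair when above it on at least 1 array; a call was a 2-fold difference. Members and gene lists were chosen with earlier results of these data known. Named were isoform pairs, the brightest, steadiest and widest-ranging members, those past 2-fold, and examples from the lists. A difference is the log2 ratio of the groups in the order named. No test was possible with 1 array per group, and the number of arrays limits the precision. Alternatives were other floors, other scalings (quantile, hybridization controls, poly-A controls, genes of like signal), other probe set rules and members without assembly factors. Procedures were tested on simulated data. Python 3.11.15, pandas 2.3.3, numpy 2.4.6 and matplotlib 3.10.9 were used.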

Additional observations from a re-analysis of the deposited data

Results flagged for a closer look

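Members were singled out where the differences of iNSC_14F and of iNSC_13F from MEF or NSC had opposite signs and the induced arrays were at least 2-fold apart; with 1 array each, the difference between the induced arrays was not tested. Against MEF, Cox6a2 was 0.77 in iNSC_14F and -0.67 in iNSC_13F, at signals near the floor. Atp5md was -0.18 in iNSC_14F and 0.82 in iNSC_13F against MEF. Ndufaf4 was -1.11 in iNSC_14F and 0.090 in iNSC_13F against MEF, and -0.9996 in iNSC_14F and 0.20 in iNSC_13F against NSC.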

How the results depend on the processing

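No paired analysis was possible because each group has 1 array. The medians, 2-fold counts and orders were recomputed under each alternative: 165 values stayed near the reported ones (a median inside the 95% order-statistic interval of the members' median, a count within 1.5 times), 56 moved and 6 reversed. That interval is a spread between genes on 1 pair of arrays. It served as a yardstick only and does not measure how far the difference would vary between replicate samples. Among single genes 366 kept direction and call, 140 kept direction alone and 17 reversed. The causes were not tested, beyond the common factor per array that either control scaling applies to all genes.

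With equal hybridization controls the median was 0.45 for iNSC_13F against MEF (0 members rose, 11.4% of all genes), 0.91 for NSC against MEF (35 rose, 42.3% of all genes), -0.14 for iNSC_14F against NSC (1 rose and 6 fell, 2.60% and 31.7% of all genes), -0.44 for iNSC_13F against NSC (0 rose and 8 fell, 1.31% and 38.0%) and 0.29 for iNSC_14F against iNSC_13F (0 fell, 1.85%), and 3 of 84 members had both induced arrays highest. Cox5a reversed to -0.052 in iNSC_13F against NSC.

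With equal poly-A controls, added after the data were seen, the median was 0.50 for iNSC_14F against MEF (2 rose, 13.6% of all genes), -0.055 for iNSC_13F against MEF (0 rose and 2 fell, 5.52% and 33.0%), 1.12 for NSC against MEF (57 rose, 48.9%), -0.57 for iNSC_14F against NSC (0 rose and 15 fell, 1.24% and 42.2%), -1.16 for iNSC_13F against NSC (0 rose and 61 fell, 0.442% and 65.2%) and 0.59 for iNSC_14F against iNSC_13F (0 fell, 0.855%), and 0 of 82 members had both induced arrays highest. Reversed against NSC were, in iNSC_14F, Atp5d -0.23, Cox6a1 -0.23, Cox6b2 -0.042, Cox6c -0.15, Cox7a2l -0.28, Cox8c -0.21, Ndufa13 -0.17, Ndufc1 -0.28, Ndufs7 -0.15, Ndufv1 -0.054 and Sdhb -0.24, and, in iNSC_13F, Atp5md -0.42, Cox5a -0.77, Cox8c -0.24, Ndufb6 -0.55 and Ndufv3 -0.52.

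After quantile normalization the medians were 0.58 for iNSC_14F against MEF (10 rose, 19.9% of all genes), 0.50 for iNSC_13F against MEF (2 rose, 19.1%), 0.25 for NSC against MEF, 0.36 for iNSC_14F against NSC (8 rose, 21.2%) and 0.28 for iNSC_13F against NSC (3 rose and 1 fell, 21.6% and 18.6%), and 1 member fell in iNSC_14F against iNSC_13F (3.58%). Centred on genes of like signal, also added after seeing the data, the medians were 0.40 for iNSC_14F against MEF (2 rose, 16.3%), 0.32 for iNSC_13F against MEF (1 rose, 14.2%), 0.14 for iNSC_14F against NSC (2 rose and 3 fell, 7.04% and 24.6%) and -0.0015 for iNSC_13F against NSC (1 rose, 7.91%), and 1 rose and 1 fell in iNSC_14F against iNSC_13F (4.26% and 4.17%).

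The remaining changes were in small counts. Except for the last alternative, they are given without the share of all genes. They show how far a count moved and do not set the members against other genes. With the floor at the 99th percentile 1 member fell in iNSC_13F against NSC. With no floor and a pseudocount of 16, 3 fell in iNSC_14F, 1 in iNSC_13F and 3 in NSC, each against MEF. Taking the median over all probe sets per gene, 7 rose in iNSC_13F against MEF, and iNSC_14F against NSC had a median of 0.62 with 2 falling. Without shared probe sets (suffixes _s_at and _x_at) 2 fell in iNSC_14F and 1 in iNSC_13F, each against NSC. With the assembly factors left out 0 fell in iNSC_14F against MEF (18.6% of all genes) and 1 against iNSC_13F (2.95%). Signals near the floor limit the restricted isoforms of complex IV, whose folds there have no replicate check.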

Other observations

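Among the listed genes outside the respiratory members, 13 of 176 above the floor on some array were highest in NSC and lower on both induced arrays than in MEF, an order chosen after the values were seen. It was held by 13.7% of all genes and by 1 of 86 members, Ndufs1. The 13 were Cox16, Lrpprc, Sco1, Tmem126b, Gpd2, Mrpl35, Mrpl47, Gabpa, Gabpb2, Mterf3, Tfb2m, Dld and Sucla2. Dld, the dihydrolipoamide dehydrogenase shared by pyruvate and 2-oxoglutarate dehydrogenase, had a signal of 319 in iNSC_14F, 324 in iNSC_13F, 2352 in NSC and 776 in MEF. Lrpprc, which stabilises mitochondrial messenger RNA, had 276 in iNSC_14F, 289 in iNSC_13F, 1323 in NSC and 577 in MEF. Mitochondrial transcription factor Tfb2m had 454 in iNSC_14F, 592 in iNSC_13F, 1640 in NSC and 957 in MEF.

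Probe sets whose annotation names several genes, at least 1 of them a respiratory member, numbered 10 and were left out of the gene values. Of these 6 were above the floor on all 4 arrays. At the authors' scaling all 6 were higher on both induced arrays than on NSC and MEF. That order was held by 40.5% of the 8169 genes measured on all 4 arrays. The 6 were not looked at under the other scalings, where few or none of the members kept the order.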
